A study of Mus musculus with 18 samples.

Results

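The core genes of the circadian clock were followed in the hippocampus of wild-type (WT) mice and of mice knocked out for *Ccny*, which encodes cyclin Y. The 10 genes, *Per1*, *Per2*, *Per3*, *Cry1*, *Cry2*, *Dbp*, *Nr1d1*, *Nr1d2*, *Arntl* and *Clock*, were taken by name, and all 10 were among the 15329 genes measured. Each of 18 mice gave one library of hippocampal mRNA, with 3 mice in each of 6 groups. The WT_Basal and KO_Basal mice were not trained, the WT_OL and KO_OL mice had been through original learning in a Morris water maze, and the WT_RL and KO_RL mice through original and then reversal learning, in which the platform was moved. All 6 groups were C57BL/6J mice aged 8 to 10 weeks, and the trained groups differed from the Basal groups by all that training involves, swimming and handling included. The hour of tissue collection in each group is not given in the sources used here. Clock genes vary over the day, so training and hour of collection cannot be told apart, and whole hippocampus was sequenced, so a change in the number of cells of one type and a change in RNA per cell cannot be told apart either.

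In the mammalian clock, the proteins of *Arntl* (BMAL1) and *Clock* pair up and switch on genes through a DNA element called the E-box. Among these genes are the period genes (*Per1*, *Per2*, *Per3*) and the cryptochromes (*Cry1*, *Cry2*), whose proteins return to the nucleus and hold BMAL1 and CLOCK back. BMAL1 and CLOCK also drive *Dbp*, an activator that acts on D-boxes, and *Nr1d1* and *Nr1d2* (REV-ERBα and REV-ERBβ), repressors that act on RORE elements and hold down *Arntl*. *Per1* has a further input, since calcium and cAMP signalling act on it through cAMP response elements (CRE), and *Per1* and *Per2* are also known targets of glucocorticoids.

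Promoter windows of 250 bases before to 50 bases after a transcription start were taken from RefSeq (GRCm38.p6). They held 13 windows for 9 of the 10 genes, and *Per2* had no entry. The letters CACGTG (E-box), TTANGTAA (D-box), TGACGTCA (CRE), TGACG (CRE core, which also lies within a CRE) and the RORE were searched on both strands. The following stretches are shown because they hold letters that match these elements. Whether the matches act on these genes was not tested. Capitals mark the element, and all stretches run 5′ to 3′ on the strand of the gene.
*Per1*, upstream start, chr11:69098699-69098948, plus strand, E-box and CRE core: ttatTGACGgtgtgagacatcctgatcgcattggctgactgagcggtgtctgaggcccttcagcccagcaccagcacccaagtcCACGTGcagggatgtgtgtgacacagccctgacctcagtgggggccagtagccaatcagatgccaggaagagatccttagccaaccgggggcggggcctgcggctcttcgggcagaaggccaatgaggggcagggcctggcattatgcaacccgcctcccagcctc
*Per1*, downstream start, chr11:69099902-69100151, plus strand, CRE core: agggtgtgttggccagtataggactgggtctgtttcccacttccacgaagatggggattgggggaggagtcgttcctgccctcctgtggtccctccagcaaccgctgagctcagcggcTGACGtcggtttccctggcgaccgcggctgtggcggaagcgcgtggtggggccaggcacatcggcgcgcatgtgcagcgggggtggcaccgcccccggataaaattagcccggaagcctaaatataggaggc
*Per3*, chr4:151044796-151044890, minus strand, D-boxes: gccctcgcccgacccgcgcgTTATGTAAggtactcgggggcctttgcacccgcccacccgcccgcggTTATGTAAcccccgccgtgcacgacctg
*Cry1*, chr10:85185089-85185134, minus strand, E-box: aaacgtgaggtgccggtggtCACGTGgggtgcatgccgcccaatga
*Arntl*, chr7:113207532-113207552, plus strand, RORE: ggcagAAAGTAGGTCAgggac

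The E-box was found in windows of 2 of the 9 genes, *Per1* and *Cry1*, against 7.15% of all 32851 windows. The D-box stood in the window of 1 gene, *Per3*, which held 2 copies, against 2.32% of all windows. The RORE was found for 1 gene, *Arntl*, just after its start, against 0.384% of all windows. No window held the full CRE, found in 1.79% of all windows, while the CRE core occurred in 3 genes, *Per1*, *Cry1* and *Cry2*, against 20.8%. The 9 genes had 13 windows, so a count of genes and a share of windows are unlike measures. These matches describe letters in short windows and are not measured binding sites.

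The sequencing was deep enough for every one of these genes, with 440 to 5838 reads per gene and library and 29248557 to 37915576 reads per library on the genes listed. *Ccny* checked the labels. It averaged 155 ± 4.87 CPM (read counts scaled for library size; SD, n = 3) in WT_Basal and 92 ± 3.33 in KO_Basal, and all 9 KO mice lay below all 9 WT mice. Reads on the gene remained in the KO mice, and which part of it they cover was not analysed here. Its fall passed an adjusted p under 0.05 in Basal (adjusted p = 0.0121) and OL mice (adjusted p = 0.018, limma), and gave adjusted p = 0.0821 in RL mice. The hippocampal markers *Wfs1* (CA1) and *Prox1* (dentate gyrus) were present in every library, at 91.4 to 175 and 34.4 to 90.5 CPM. Mice of the same group differed most in WT_OL, where the chi-square per gene between a pair of libraries was 46.1, 23.8 and 104 (the last between replicates 2 and 3), and in WT_RL, where it reached 71.4. Counts of calls over all genes rested on these mice. Between WT_OL and WT_Basal 1457 genes were called, with 2496 without WT_OL replicate 3 and 905 without WT_OL replicate 2. Between KO_OL and WT_OL 10 were called, with 2536 and 0 without these mice.

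In untrained WT mice, levels were compared between genes as CPM per kilobase of exon. *Nr1d1* was the most abundant at 28.6 ± 2.17 CPM per kilobase, followed by *Dbp* (23.6 ± 1.52), *Nr1d2* (23.0 ± 2.13), *Cry2* (19.2 ± 0.808) and *Per1* (11.6 ± 0.696). *Clock* (8.44 ± 0.377), *Per2* (5.29 ± 0.373), *Cry1* (4.98 ± 0.518), *Arntl* (3.83 ± 0.202) and *Per3* (3.63 ± 0.399) followed. The mice of neighbouring genes in this order overlapped between *Dbp* and *Nr1d2*, between *Per2* and *Cry1* and between *Arntl* and *Per3*. Exons of *Dbp* and *Nr1d1* share 539 and 263 bases with *Sphk2* and *Thra* on the opposite strand, and those of *Cry2* and *Arntl* share 295 and 33 bases with noncoding genes on the opposite strand. Whether the counting used the strand is not given in the sources used here, so reads of these overlaps are uncertain.

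**Figure D1:**
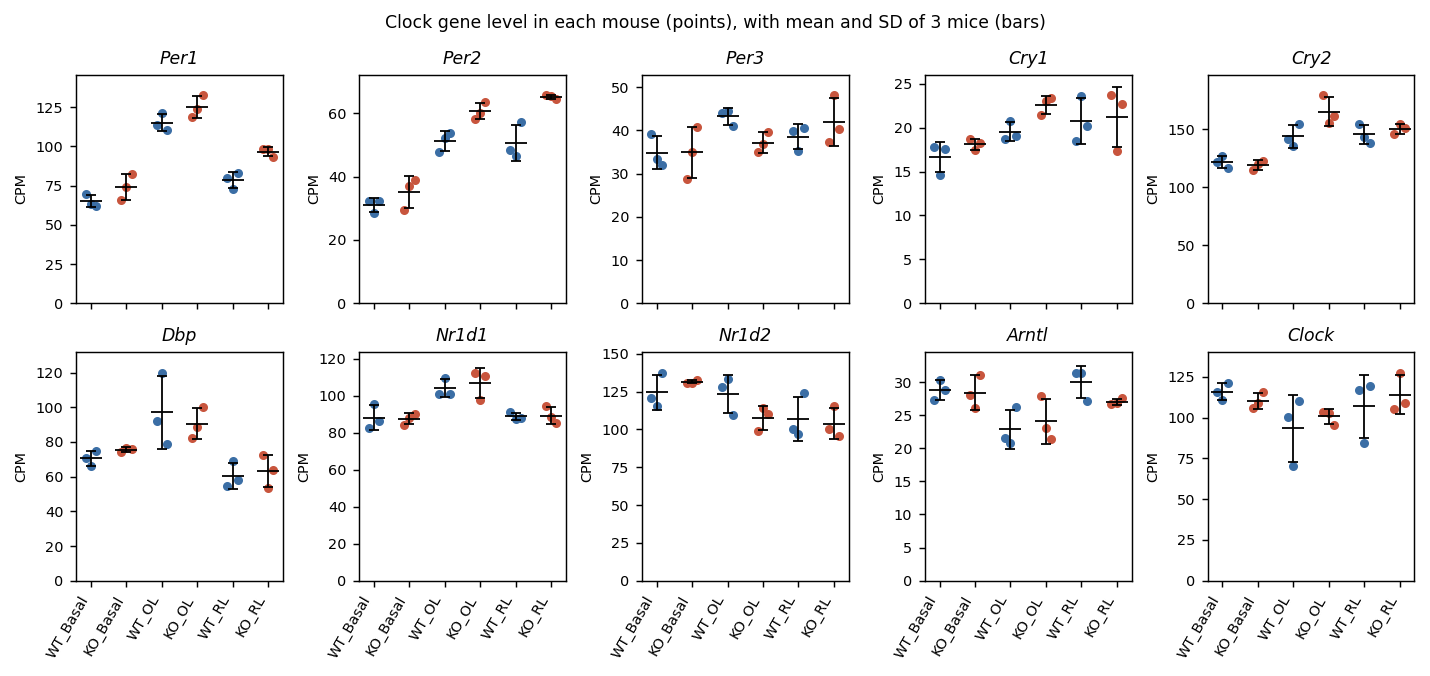
Level of the 10 clock genes in CPM (y axes, from 0) in each of 18 mice, by group (x axes). Blue points are WT mice and red points KO mice, and black bars give the mean and SD of 3 mice. *Per1* and *Per2* of every OL mouse lie above every Basal mouse, and in RL mice *Per1* lies between the Basal and OL groups while *Per2* lies near its OL level.

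Original learning was compared with no training within each genotype. *Per1* and *Per2* rose in both genotypes by more than the other 8 genes, and *Cry2* and *Nr1d1* rose by less. In WT mice 4 of the 10 genes were called higher at an adjusted p under 0.05, where 3.88% of all genes were called higher. In KO mice the same 4 genes were called higher, where 11.2% of all genes were. No member was called lower in either genotype. The median log2 difference of the 10 genes was 0.24 in WT and 0.27 in KO mice, beside medians of 0.00 and -0.01 over all genes.

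*Per1*, a period gene that is also induced by neuronal activity, measured 69.6, 63.5 and 62.3 CPM in WT_Basal mice, while WT_OL mice had 114, 121 and 111 CPM. In KO_Basal mice it stood at 66.1, 73.8 and 82.7 CPM and in KO_OL mice at 119, 124 and 133 CPM. The OL mice of either genotype did not overlap with the Basal mice of either genotype. The rise was 0.81 ± 0.0805 (SE) on the log2(CPM + 1) scale in WT mice (adjusted p = 9.1e-05, limma), a ratio of mean CPM of 1.77. In KO mice it was 0.75 ± 0.0805 (adjusted p = 2.66e-05, limma). The call held in all 14 alternative settings in each genotype.

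*Per2*, the period gene closest to *Per1* in function, stood at 32.2, 28.5 and 32.3 CPM in WT_Basal and at 47.7, 52.2 and 53.7 CPM in WT_OL. It stood at 29.6, 37.0 and 38.9 CPM in KO_Basal and at 58.3, 60.2 and 63.5 CPM in KO_OL. Again every OL mouse lay above every Basal mouse. The log2 rise was 0.71 ± 0.097 in WT (adjusted p = 0.000662, limma) and 0.78 ± 0.097 in KO mice (adjusted p = 6.96e-05, limma), and both calls held in all 14 alternatives. *Per3*, a period gene that is not required for the rhythm itself, ranged from 32.0 to 39.2 CPM in WT_Basal and from 41.0 to 44.5 CPM in WT_OL, without overlap, but was not called (log2 difference 0.31, adjusted p = 0.11, limma). In KO mice the *Per3* groups overlapped, with a log2 difference of 0.10 (adjusted p = 0.57, limma).

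*Cry2*, a cryptochrome repressor, stood at 122, 127 and 116 CPM in WT_Basal and at 141, 136 and 155 CPM in WT_OL. In KO mice it stood at 115, 120 and 123 CPM before and at 179, 155 and 161 CPM after original learning. The groups did not overlap in either genotype. The log2 rise was 0.46 ± 0.0703 in KO mice (adjusted p = 0.000303, limma), called in all 14 alternatives, and 0.24 ± 0.0703 in WT mice (adjusted p = 0.0426, limma), called in 5 of 14. The WT call was lost without any one of the WT_Basal mice or WT_OL replicate 1 or 3 (log2 0.19 to 0.27 over these fits). *Cry1*, the other cryptochrome, lay between 14.7 and 23.3 CPM in these 4 groups. Its OL mice were above its Basal mice in both genotypes, and neither difference was called (log2 0.22, adjusted p = 0.223 in WT; log2 0.30, adjusted p = 0.0589 in KO mice, limma).

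Among the outputs of the loop, *Nr1d1* stood at 82.5, 95.5 and 86.3 CPM in WT_Basal and at 101, 109.7 and 101 CPM in WT_OL. It stood at 84.3, 87.9 and 90.1 CPM in KO_Basal and at 112, 97.3 and 111 CPM in KO_OL. The OL mice were above the Basal mice in both genotypes. The log2 rise was 0.24 ± 0.0714 in WT (adjusted p = 0.0463, limma), called in 7 of 14 alternatives, and 0.28 ± 0.0714 in KO mice (adjusted p = 0.00939, limma), called in 13 of 14, the exception being the fit without KO_OL replicate 1. For *Nr1d2*, its close relative, the log2 difference was -0.01 in WT (adjusted p = 0.959) and -0.29 in KO mice (adjusted p = 0.0555, limma).

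*Dbp*, the D-box activator, stood at 70.6, 65.9 and 75.0 CPM in WT_Basal and at 92.3, 119.9 and 78.7 CPM in WT_OL. The groups did not overlap, and the log2 difference of 0.44 ± 0.135 missed the threshold (adjusted p = 0.0524, limma). It was called in 4 of 14 alternatives, with log2 0.57 (adjusted p = 0.0105) without WT_OL replicate 3, the lowest WT_OL mouse for this gene, and adjusted p from 0.0477 to 0.0492 with a mean of at least 1 CPM, median-of-ratios scaling or the summed level of choroid plexus markers as a covariate. Without WT_OL replicate 2, the highest mouse, it was 0.27 (adjusted p = 0.208). In KO mice *Dbp* was at 74.1, 76.8 and 75.9 CPM before and 82.5, 88.5 and 100.1 CPM after original learning (log2 0.25, adjusted p = 0.189, limma).

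The activators had lower means after original learning. *Arntl* stood at 27.3, 30.3 and 28.8 CPM in WT_Basal and at 21.6, 20.8 and 26.2 CPM in WT_OL, without overlap (log2 -0.33, adjusted p = 0.0603, limma), and was called lower in 2 of 14 alternatives, without WT_OL replicate 3 (log2 -0.42, adjusted p = 0.0145) and with the choroid plexus covariate (log2 -0.31, adjusted p = 0.0465). In KO mice its groups overlapped (log2 -0.23, adjusted p = 0.115, limma), and it was called lower without KO_OL replicate 1 (log2 -0.34, adjusted p = 0.0404). *Clock* was at 116, 111 and 121 CPM in WT_Basal and at 100.1, 70.3 and 109.9 CPM in WT_OL (log2 -0.33, adjusted p = 0.152, limma), and was called lower in 1 of 14 alternatives, without WT_OL replicate 3 (log2 -0.46, adjusted p = 0.0422). Without WT_OL replicate 2, the lowest mouse, it was -0.14 (adjusted p = 0.548). In KO mice the *Clock* difference was -0.13 (adjusted p = 0.556, limma).

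In the comparison of OL with Basal, the mice of the groups did not overlap for 9 of 10 clock genes in WT, where 28.3% of all genes did not overlap, and for 8 of 10 in KO mice, where 48.8% did not. The exact permutation test of 3 mice against 3 cannot go below p = 0.1, the value of every such gene. In WT_OL against WT_Basal, voom on the recovered reads called 2 of the 10 genes, *Per1* and *Per2*.

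**Figure D2:**
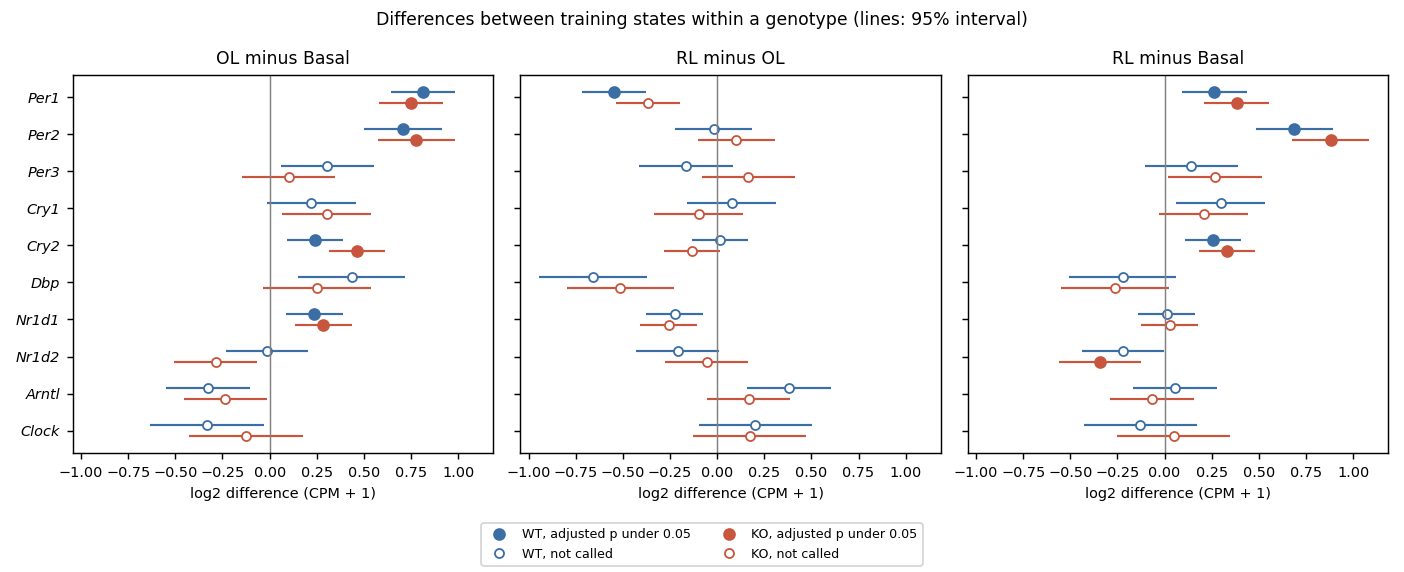
Log2 difference of CPM + 1 (x axes) for each clock gene (y axis) between training states, in WT (blue) and KO mice (red), for OL minus Basal, RL minus OL and RL minus Basal. Filled points have an adjusted p under 0.05, open points do not, and lines are 95% intervals. *Per1* and *Per2* lie farthest to the right for OL minus Basal, and for RL minus OL only *Per1* in WT mice is filled, at -0.55.

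Reversal learning was compared with original learning and with no training. After reversal learning *Per1* was below its OL level in WT mice, while no difference from OL was detected for *Per2*. *Per1* stood at 79.7, 72.8 and 82.9 CPM in the WT_RL mice, below every WT_OL mouse and above every WT_Basal mouse. It was 0.55 ± 0.0805 lower than in WT_OL on the log2 scale (adjusted p = 0.0194, limma). *Per1* was the 1 member called lower, where 0.157% of all genes were called lower, and this call was lost without WT_OL replicate 1 or 2 or WT_RL replicate 2, and when only the groups compared were fitted. Against WT_Basal it was 0.26 higher (adjusted p = 0.0352, limma), called in 9 of 14 alternatives.

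In KO_RL mice *Per1* stood at 98.2, 98.1 and 93.5 CPM, again between the other KO groups without overlap. Its log2 difference from KO_OL was -0.37 (adjusted p = 0.198, limma), and from KO_Basal 0.38 ± 0.0805 (adjusted p = 0.0032, limma), a call that held in all 14 alternatives. In KO mice 0 of 10 members were called between RL and OL by limma and by voom, where limma called 0.0196% of all genes. At an unadjusted p under 0.05 there were 3 members, beside 737 of all 15329 genes.

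*Per2* stood at 48.3, 46.5 and 57.2 CPM in WT_RL and at 65.7, 65.5 and 64.4 CPM in KO_RL. Its log2 difference from the OL mice was -0.02 in WT (95% interval -0.22 to 0.19) and 0.10 in KO mice (95% interval -0.10 to 0.31). Against the untrained mice it was higher by 0.69 ± 0.097 in WT (adjusted p = 0.000374, limma) and by 0.88 ± 0.097 in KO mice (adjusted p = 3.03e-05, limma), in all 14 alternatives each.

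*Cry2* was also higher after reversal learning than without training. It stood at 154, 143 and 138 CPM in WT_RL and at 146, 154 and 151 CPM in KO_RL, above every Basal mouse of the same genotype. The log2 rise was 0.26 ± 0.0703 in WT (adjusted p = 0.0223, limma), called in 10 of 14 alternatives, and 0.33 ± 0.0703 in KO mice (adjusted p = 0.00331, limma), called in all 14. *Cry1* differed from Basal by log2 0.30 in WT (adjusted p = 0.0796) and 0.21 in KO mice (adjusted p = 0.193, limma), where it was called without KO_RL replicate 2 (log2 0.34, adjusted p = 0.0352). *Per3*, not called between KO_RL and KO_Basal (log2 0.27, adjusted p = 0.111), was called without KO_Basal replicate 3 (log2 0.38, adjusted p = 0.0317).

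The means of the output genes were near or below their untrained level after reversal learning. *Dbp* stood at 54.4, 68.8 and 58.2 CPM in WT_RL and at 72.5, 53.6 and 63.7 CPM in KO_RL, below every OL mouse of the same genotype. The log2 difference from OL was -0.66 ± 0.135 in WT (adjusted p = 0.0521, limma) and -0.51 ± 0.135 in KO mice (adjusted p = 0.368, limma). The WT difference was called in 3 of 14 alternatives, without WT_OL replicate 3 (log2 -0.80, adjusted p = 0.0055), with median-of-ratios scaling and with the choroid plexus covariate (adjusted p = 0.0458 and 0.0468). Without WT_OL replicate 2 it was -0.50 (adjusted p = 0.197). Against Basal, *Dbp* was not called in WT (log2 -0.22, adjusted p = 0.287) or KO mice (log2 -0.26, adjusted p = 0.168, limma). It was called in 0 of 14 alternatives in each genotype.

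*Nr1d1* stood at 87.5 to 90.9 CPM in WT_RL and at 85.0 to 94.1 CPM in KO_RL, below every OL mouse, with log2 differences from OL of -0.23 (adjusted p = 0.18) and -0.26 (adjusted p = 0.437, limma). From Basal it differed by 0.01 in WT and 0.03 in KO mice. *Nr1d2* stood at 131, 131 and 133 CPM in KO_Basal and at 100.2, 116 and 95.8 CPM in KO_RL. It was called lower (log2 -0.34 ± 0.103, adjusted p = 0.0255, limma), in 9 of 14 alternatives, and the call was lost without any one of the KO_Basal mice and without KO_RL replicate 1 or 3. In WT mice *Nr1d2* differed from Basal by -0.22 (adjusted p = 0.159, limma), and by -0.33 (adjusted p = 0.039) without WT_RL replicate 3.

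*Arntl* stood at 31.4, 31.4 and 27.2 CPM in WT_RL, above every WT_OL mouse (log2 0.38, adjusted p = 0.139, limma). Of 14 alternatives 1 called it, without WT_OL replicate 3 (log2 0.48, adjusted p = 0.0133), and it was 0.32 (adjusted p = 0.516) without WT_OL replicate 2. In KO_RL mice *Arntl* lay between 26.6 and 27.5 CPM and overlapped with KO_OL. *Clock* differed between RL and OL by 0.20 in WT (adjusted p = 0.484; 0.012 without WT_OL replicate 2) and 0.17 in KO mice (adjusted p = 1, limma).

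For RL against Basal, 3 of the 10 genes were called higher in WT mice (*Per1*, *Per2* and *Cry2*), where 8.28% of all genes were. In KO mice the same 3 were called higher, where 11.6% of all genes were, and *Nr1d2* was called lower, where 12% were. The groups did not overlap for 4 of 10 genes in WT and 5 of 10 in KO mice, where 34.3% and 45.3% of all genes did not overlap. For RL against OL, 5 of 10 genes in WT and 6 of 10 in KO mice did not overlap, where 11.1% and 13.2% of all genes did not. Comparisons within a genotype share groups, so their values are not independent of each other.

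KO mice were compared with WT mice in each training state. No clock gene was called in any state. The number of members called was 0 of 10 in Basal, OL and RL mice by limma and by voom. Limma called 0.0196%, 0.0652% and 0% of all genes. At an unadjusted p under 0.05 there were 1, 2 and 2 members, beside 613, 2764 and 756 of all 15329 genes. The largest difference was that of *Per1* in Basal mice and that of *Per2* in OL and in RL mice. *Per2* was higher in KO than in WT mice by 0.17 in Basal (95% interval -0.04 to 0.38), 0.24 in OL (0.04 to 0.45) and 0.36 in RL mice (0.16 to 0.57), with adjusted p = 0.994, 0.225 and 0.578 (limma). All 3 KO mice lay above all 3 WT mice for *Per2* in OL and in RL. In OL mice 4 of the 10 genes did not overlap between genotypes. Of these, 3 were higher in KO mice (*Per2*, *Cry1* and *Cry2*). *Per3* was lower, at 34.9 to 39.7 CPM in KO_OL and 41.0 to 44.5 CPM in WT_OL. The share of all genes without overlap was not counted for OL mice, so whether 4 of 10 is more than that share is not known.

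*Per1* was higher in KO mice by 0.18 in Basal (95% interval 0.01 to 0.35), 0.12 in OL (-0.05 to 0.29) and 0.30 in RL mice (0.13 to 0.47), with adjusted p = 0.994, 0.43 and 0.578 (limma), and its mice did not overlap in RL. For RL mice, *Per1* and *Per2* were the 2 of 10 genes whose groups did not overlap, where 8.18% of all genes did not. *Cry2* was higher in KO_OL than in WT_OL mice by 0.20 (95% interval 0.05 to 0.35, adjusted p = 0.195, limma), without overlap, and was called in 1 of 14 alternatives, without WT_OL replicate 3 (log2 0.25, adjusted p = 0.0292), while it was 0.16 (adjusted p = 0.644) without WT_OL replicate 2. Over all 10 genes, the 95% intervals of the genotype differences reached from -0.37 to 0.39 in Basal, from -0.46 to 0.45 in OL and from -0.36 to 0.57 in RL mice.

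**Figure D3:**
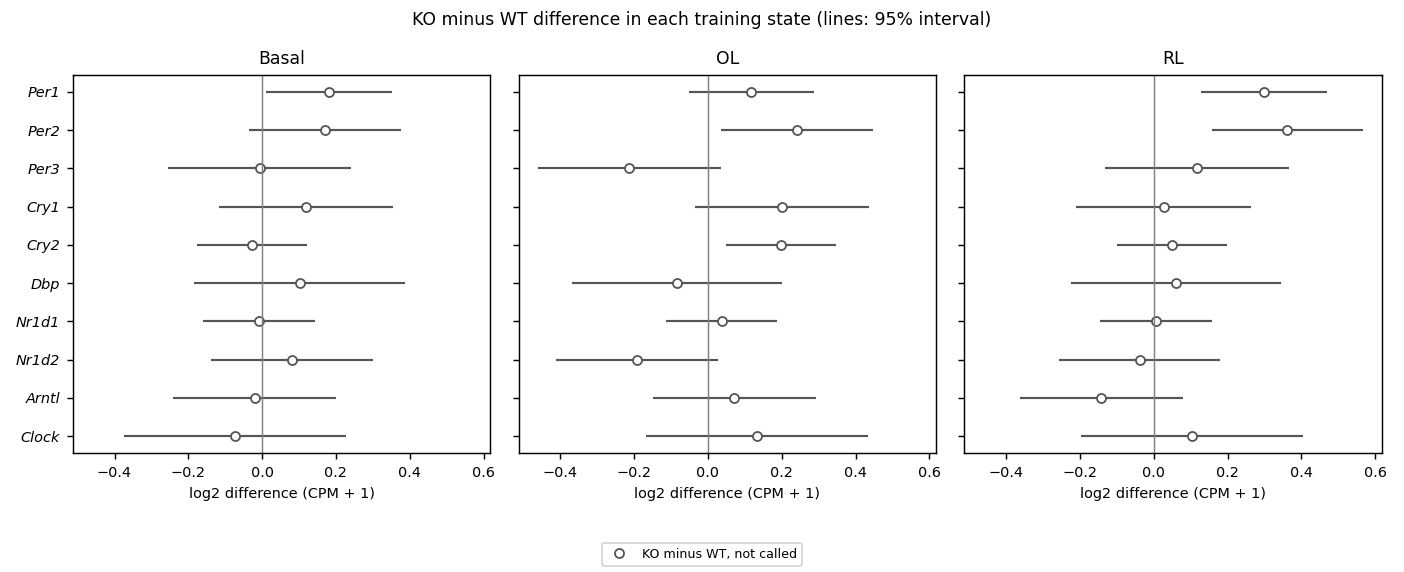
KO minus WT difference of log2(CPM + 1) (x axes) for each clock gene (y axis) in Basal, OL and RL mice. Open points were not called and lines are 95% intervals. Every point is open, and *Per1* and *Per2* in RL mice lie farthest to the right, at 0.30 and 0.36.

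The difference between genotypes in the change from one state to another was tested directly. None of the 10 genes was called for OL minus Basal, RL minus OL or RL minus Basal by limma or voom. At an unadjusted p under 0.05 there were 1, 0 and 0 of the 10 genes, beside 1908, 1224 and 765 of all 15329. At an adjusted p under 0.05, limma called 0%, 0% and 0% of all genes. These zeros over all genes changed when single mice were left out, to 907 for OL minus Basal without WT_OL replicate 3, to 21 for RL minus OL without WT_RL replicate 1, and to 32 and 43 for RL minus Basal without WT_RL replicate 1 and 3. The number of clock genes called stayed at 0 in each of these fits. For *Per1* the OL minus Basal change was -0.06 different in KO mice (95% interval -0.30 to 0.18). For *Per2* it was 0.07 different (95% interval -0.22 to 0.36). For *Cry2* it was larger by 0.22 in KO mice (95% interval 0.01 to 0.44, adjusted p = 0.392, limma). With 3 mice per group, these data do not tell apart differences that lie within an interval.

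A further 21 genes of the clock were taken from a list. After original learning 3 of the 21 were called higher in WT mice and 7 in KO mice, where 3.88% and 11.2% of all genes were. *Ciart*, a repressor of BMAL1 and CLOCK also known as Chrono, stood at 10.6, 9.72 and 10.9 CPM in WT_Basal and at 18.2, 23.1 and 14.9 CPM in WT_OL. It fell to 9.69, 8.96 and 8.11 CPM in WT_RL. Its log2 rise was 0.77 ± 0.128 (adjusted p = 0.00187, limma) and its fall from WT_OL to WT_RL was -0.97 ± 0.128 (adjusted p = 0.0137, limma). In KO mice *Ciart* rose by 0.41 ± 0.128 after original learning (adjusted p = 0.0293, limma), and its RL minus OL difference was -0.59 (adjusted p = 0.198, limma).

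*Nfil3*, a repressor that competes with DBP for D-boxes, rose in both genotypes after original learning, by log2 0.55 in WT (adjusted p = 0.00256) and 0.48 in KO mice (adjusted p = 0.00208, limma). Unlike *Ciart*, it was also called higher in RL than in Basal mice of both genotypes, by 0.82 and 0.52 (adjusted p = 9.02e-05 and 0.00119, limma).

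*Rorb*, which activates RORE elements, was called higher in WT_OL mice (log2 0.45, adjusted p = 0.0321, limma). In KO_OL mice the further genes called higher were *Bhlhe40* and *Bhlhe41*, E-box repressors (log2 0.39 and 0.26), *Tef*, a relative of *Dbp* (0.20), *Csnk1d*, a kinase of the period proteins (0.23), and *Usp2*, a ubiquitin protease (0.33), with adjusted p from 0.013 to 0.0437 (limma). Whether these genes changed differently in the 2 genotypes was tested by the same difference of OL minus Basal changes. Limma called 0 of the 21, with 3 at an unadjusted p under 0.05, beside 1908 of all 15329 genes. The median log2 difference of the 21 genes was 0.00 in WT and 0.16 in KO mice after original learning, beside 0.00 and -0.01 over all genes. For RL against Basal, 1 was called higher in WT mice and 4 in KO mice, where 8.28% and 11.6% of all genes were. For RL against OL, 1 was called lower in WT mice, where 0.157% of all genes were. In KO mice 0 were called, where 0.0196% of all genes were. At an unadjusted p under 0.05 there were 3 of the 21 in KO mice, beside 737 of all 15329 genes.

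**Figure D4:**
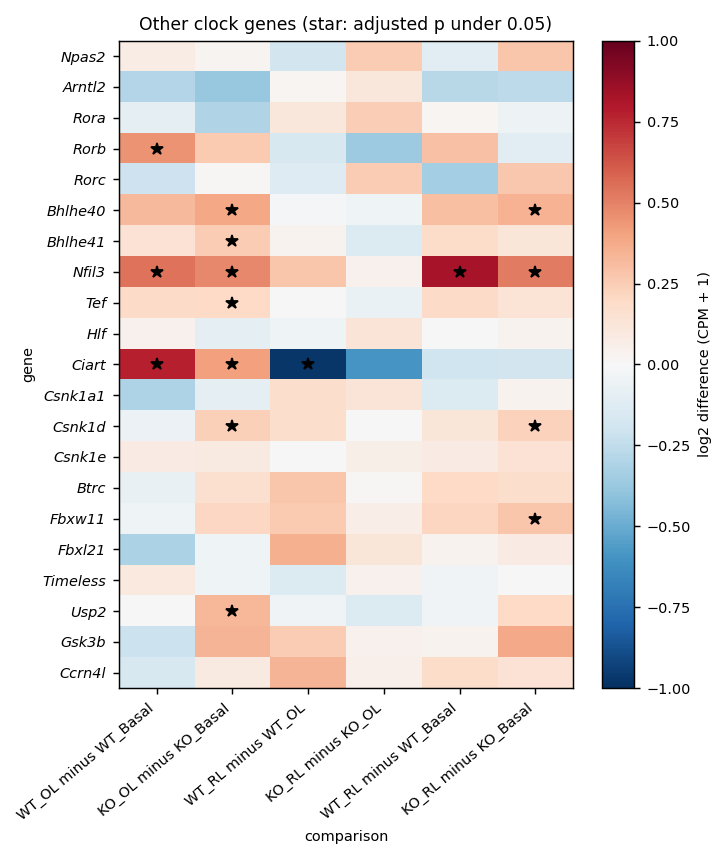
Log2 difference of CPM + 1 (colour, from blue for lower to red for higher) for 21 other clock genes (rows) in 6 comparisons of training states (columns), with a star where the adjusted p is under 0.05. *Ciart* is red for OL minus Basal and blue for RL minus OL in both genotypes, and *Nfil3* is red for OL and for RL against Basal.

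The genes whose levels over the 18 mice were most like those of a clock gene were found among 13978 genes with a mean of at least 1 CPM, by Pearson r of the log2 values. For *Per1* these were *Egr4* (r = 0.93), *Egr1* (0.92), *Egr2* (0.90), *Sik1* (0.90) and *Ppp1r13l* (0.88). The first 3 are activity-induced transcription factors. For *Dbp* they were *Ciart* (0.92), *Galk1* (0.87), *Mvk* (0.86), *Klhdc8b* (0.86) and *Arhgdib* (0.86). For *Arntl* they were *Clvs2* (0.84), *Stxbp6* (0.84), *Ccdc25* (0.83), *Cap2* (0.81) and *Diras1* (0.81). These values describe 18 mice that share 6 groups and carry no test.

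**Figure D5:**
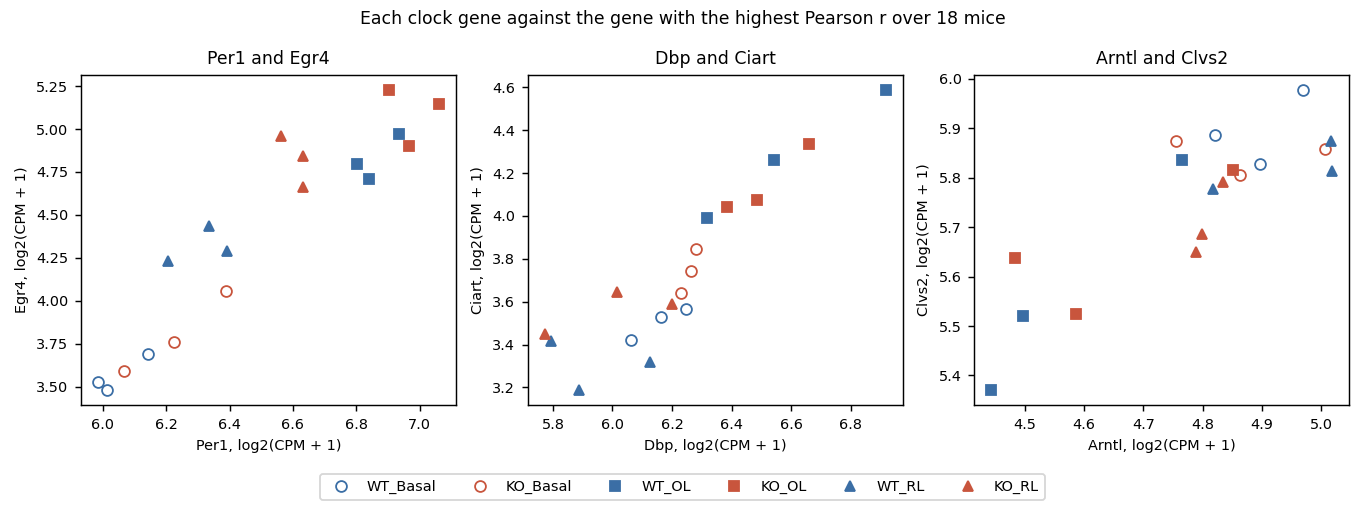
Log2(CPM + 1) of *Per1*, *Dbp* and *Arntl* (x axes) against the gene most like each, *Egr4*, *Ciart* and *Clvs2* (y axes), in 18 mice. Colours give genotype (blue WT, red KO) and symbols training (open circles Basal, squares OL, triangles RL). The OL mice are at the upper right for *Per1* and *Dbp*, and most OL mice are at the lower left for *Arntl*.

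Mice of the same group were also compared with each other, after the group mean was removed from each gene. Of 45 pairs of clock genes, 2 had an adjusted p under 0.05 by an exact permutation test over all arrangements of mice within groups (two-sided, Benjamini-Hochberg over 45 pairs). *Per1* and *Per3* went together (r = 0.85, p = 0.00103, adjusted p = 0.0236, exact permutation test; Spearman rho = 0.81, p = 0.00229, adjusted p = 0.0699), and r was 0.73 without the 2 mice farthest from the median of *Per1*. *Dbp* and *Cry1* went together (r = 0.75, p = 0.00105, adjusted p = 0.0236, exact permutation test; rho = 0.80, p = 0.00311, adjusted p = 0.0699), with r = 0.88 without the 2 farthest mice. *Dbp* and *Clock* went opposite ways (r = -0.85, p = 0.00643, adjusted p = 0.0965, exact permutation test; rho = -0.77, p = 0.0132, adjusted p = 0.168; r = -0.71 without the 2 farthest mice). WT_OL replicate 2 had the highest *Dbp* of all mice and the lowest *Clock*. The number of pairs called moved between 0 and 3 when one mouse was left out.

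Gene lists of other responses and cell types were counted in the same comparisons. Against Basal, 3.88% of all genes were called higher in WT_OL, 8.28% in WT_RL, 11.2% in KO_OL and 11.6% in KO_RL mice. The shares called lower were 5.62%, 7.42%, 12.3% and 12% in the same order. Of 12 activity-induced immediate early genes, 11 were called higher in WT_OL and 4 higher and 1 lower in KO_OL mice against Basal, with median log2 differences of 1.12 and 0.37. In RL against Basal mice 4 were called higher in WT, and 3 higher and 1 lower in KO mice. Their summed level was 321 to 329 CPM in WT_Basal and 633 to 902 CPM in WT_OL, and 340.4 to 598 CPM in KO_Basal and 583 to 864 CPM in KO_OL. Of 14 glucocorticoid-induced genes, 1 was called higher in WT_OL and 5 in KO_OL mice, and 6 in WT_RL and 9 in KO_RL mice with 1 lower in each. Their summed level was 940.3 to 1021 CPM in WT_Basal, 1135 to 1314 in WT_OL and 1219 to 1350 in WT_RL mice. In KO mice it was 990.0 to 1094, 1243 to 1315 and 1310 to 1537 CPM. The genotype difference in the change from Basal was called for 0 of the 12 and 0 of the 14 genes. This was so for OL and for RL by limma, where 0% of all genes were called. The part of both lists in the levels of *Per1* and *Per2* was not tested.

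Markers of the choroid plexus, tissue that lies next to the hippocampus, also differed between groups. All 10 were called higher in KO_OL than in KO_Basal mice and 8 of 10 in KO_RL mice, where 11.2% and 11.6% of all genes were. In WT mice 0 of 10 were called. For the genotype difference in the OL and RL changes from Basal, limma called 0% of all genes and 0 of the 10 markers. Their summed level was 222 to 1127 CPM in KO_Basal, 3611 to 6926 CPM in KO_OL and 2082 to 7625 CPM in KO_RL mice, and 1429 to 6414 CPM in WT_Basal, 3120 to 4875 CPM in WT_OL and 213 to 12628 CPM in WT_RL mice, the widest range of the 6 groups. With this level as a covariate, the log2 rise in KO_OL mice was 0.70 for *Per1*, 0.61 for *Per2*, 0.57 for *Cry2* and 0.31 for *Nr1d1*, and all 4 remained called (adjusted p = 0.000876, 0.00272, 0.000886 and 0.0378, limma). *Nr1d2* was then called lower in KO_OL mice (log2 -0.45, adjusted p = 0.023, limma). The choroid plexus level did not overlap between KO_Basal and KO_OL mice, and the covariate was chosen after seeing the data. The adjustment rests on the spread of this level within groups, so it cannot separate choroid plexus from training in KO mice. The part of the choroid plexus in the clock genes was not tested. Of 8 hypothalamic neuron genes, 1 was called lower in KO_OL against KO_Basal mice, where 12.3% of all genes were. The summed level of the 8 genes was 16.7 to 30.2 CPM in KO_OL and 30.2 to 132 CPM in KO_Basal mice.

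Markers of other cell types were counted in the same 4 comparisons with Basal. Over all genes, 3.88% were called higher and 5.62% lower in WT_OL, 8.28% and 7.42% in WT_RL, 11.2% and 12.3% in KO_OL, and 11.6% and 12% in KO_RL mice. Of 5 dentate granule markers, 1 was called higher in each of KO_OL, KO_RL and WT_RL, and their median log2 difference was 0.48, 0.58 and 0.65 there and -0.09 in WT_OL mice. Of 5 CA1 markers, 1 was called higher in KO_OL and 1 in KO_RL mice, with medians of 0.15 and 0.38 there and of -0.07 and 0.03 in WT_OL and WT_RL. Of 7 endothelial markers, 1 was called higher in WT_OL, 1 lower in WT_RL, and 2 lower in KO_OL and KO_RL mice each, with medians from -0.13 to 0.08. Of 6 astrocyte markers, 1 was called higher in WT_OL and 1 lower in KO_OL and KO_RL mice each, with medians from -0.08 to 0.17. Of 7 vascular smooth muscle and 8 oligodendrocyte markers, 0 were called in these comparisons by limma, with medians from -0.21 to 0.12 and from -0.30 to 0.05. The part of these cell types in the clock genes was not tested.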

How the data were processed

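Hippocampal poly-A mRNA of 18 mice was sequenced, 1 library per mouse, and each library was grouped by the genotype and training in its labels. Per the submitters' notes and the methods of the study, the authors aligned reads to mm10 with STAR 2.5.1, counted them on genes with STAR and scaled the counts by TMM in edgeR 3.12.1 (R 3.3.0). The authors deposited log2 values. They are described as log2 of CPM floored at 1, but undoing the log2 and taking away 1 gave whole numbers of reads, each worth 0.0274 to 0.0333 CPM, for 100% of values (tolerance 0.02), so they were used as log2(CPM + 1).

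All 15329 genes were fitted with limma 3.58.1 in R 4.3.3, with 1 mean per group over all 18 libraries and 12 residual degrees of freedom, and a variance trend. P-values were two-sided and adjusted by Benjamini-Hochberg over all genes, and a gene was called at an adjusted p under 0.05. Differences are on the log2(CPM + 1) scale with a pseudocount of 1, which understates changes of low genes. Alternatives were a mean of at least 1 CPM, CPM floored at 1, a pseudocount of 0.5, voom on the recovered reads, median-of-ratios scaling, only the groups compared, a replicate block and leaving out each mouse. The choroid plexus covariate was chosen after seeing the data. The fit was tested on simulated data. The values CPM and SD are over 3 mice, whose spread exceeded counting noise (chi-square per gene 8.74 to 104).

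The clock genes and the gene lists were chosen with earlier results of these data known. One gene of the list of other clock genes is not reported here. The 10 members and *Ccny* were all named; of the other clock genes, those called after original learning; for *Per1*, *Dbp* and *Arntl*, the 5 genes most like them; of other lists, counts and medians. *Wfs1* and *Prox1* were singled out as tissue checks. Positions and exon lengths come from GENCODE M21 (GRCm38, which is mm10), promoters from RefSeq. Python 3.11.15, numpy 2.4.6, pandas 2.3.3, scipy 1.17.1 and matplotlib 3.10.9 were used. The labels do not say that the mice of a group came from separate litters.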

Additional observations from a re-analysis of the deposited data

How the results depend on the processing

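With 3 mice per group, the number of clock genes called depended on the fit. In WT_OL against WT_Basal, 4 were called, with 2 by voom on the recovered reads, 2 when only the groups compared were fitted, 2 with a replicate block, 5 with a mean of at least 1 CPM (*Dbp* added), 6 with the choroid plexus covariate (*Dbp* and *Arntl* added), and 2 to 6 with one mouse left out. The value of 2 arose without WT_Basal replicate 1 or 3 or WT_OL replicate 1, that of 6 without WT_OL replicate 3, and *Per1* and *Per2* were called in each of these fits. In KO_OL against KO_Basal, 4 were called, with 7 when only the groups compared were fitted. In WT_RL against WT_OL, 1 was called, with 2 under median-of-ratios scaling, 2 with the choroid plexus covariate, 0 when only the groups compared were fitted, and 0 to 3 with one mouse left out, the value of 3 arising without WT_OL replicate 3. In WT_RL against WT_Basal, 3 were called, with 1 when only the groups compared were fitted and 1 to 3 with one mouse left out, the value of 1 arising without WT_Basal replicate 3 or WT_RL replicate 1. In KO_OL against WT_OL, 0 were called, with 0 to 1 with one mouse left out. The 2 correlated pairs became 0 to 3 with one mouse left out. The cause of these shifts was not tested.

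The labels do not say whether replicate numbers pair the mice. Correlations of same-numbered mice lay between -0.600 and 0.514, which cannot settle it, since mice of different numbers were not compared. Beside the change in WT_OL against WT_Basal, the replicate block moved no number of clock genes called. Of 1146 alternative values of single genes, 25 changed sign, none of them called. With the choroid plexus covariate these were *Per2* (0.047) and *Cry2* (-0.023) in WT_RL against WT_OL, *Arntl* in KO_RL against KO_Basal (0.087), and the genotype difference for *Per2* in the OL minus Basal (-0.083) and RL minus Basal change (-0.012). With one mouse left out, the OL minus Basal difference ranged from -0.069 to 0.071 for *Nr1d2* in WT and from -0.027 to 0.22 for *Per3* in KO mice. The RL minus OL difference ranged in WT mice from -0.11 to 0.039 for *Per2*, -0.015 to 0.15 for *Cry1* and -0.027 to 0.070 for *Cry2*, and in KO mice from -0.18 to 0.035 for *Cry1*. The RL minus Basal difference ranged from -0.034 to 0.071 for *Nr1d1* and -0.22 to 0.030 for *Clock* in WT, and from -0.013 to 0.060 and -0.035 to 0.10 in KO mice. The KO minus WT difference in Basal mice ranged from -0.058 to 0.0023 for *Cry2*, and the genotype difference in the OL minus Basal change from -0.14 to 0.017 for *Per1* and from -0.045 to 0.15 for *Per2*.

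Calls over all genes moved as well. When only the groups compared were fitted, they went from 1457 to 74 for WT_OL against WT_Basal, from 2407 to 1523 for WT_RL against WT_Basal and from 40 to 0 for WT_RL against WT_OL, while they rose from 3600 to 5289 for KO_OL and from 3612 to 4426 for KO_RL against KO_Basal. For KO against WT they went from 3 to 7 in Basal and from 10 to 2 in OL mice. With one mouse left out, the WT comparisons ranged from 629 to 2496, 1137 to 2323 and 0 to 2042, and KO against WT from 0 to 2536 in OL and from 0 to 59 in RL mice.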
